A study of Rattus norvegicus with 33 samples.

Results

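Genes for making, breaking down and converting arginine, ornithine, the polyamines and urea were followed in the cecal microbial DNA of 33 rats. The members are the functional subsystems, groups of genes that serve a shared pathway or structure, whose names hold arginine, ornithine, polyamine, putrescine, agmatine, citrulline, urea or urease, apart from those on transfer RNA. The rule found 11 of the 1057 subsystems in the deposited function table, and each had at least 1 read. It works on names alone, so it also takes in the Twin-arginine translocation system, a protein exporter that is unrelated to arginine metabolism. Leaving that system aside, 10 subsystems deal with arginine, ornithine, polyamines or urea.

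The spontaneously hypertensive rat (SHR), an inbred strain with high blood pressure, was represented by 10 females and 7 males. The Wistar Kyoto rat (WKY), the normotensive strain usually set beside it, was represented by 9 females and 7 males. Rats of both strains and sexes were 14 to 15 weeks old, were kept at a single university, and carried no treatment in the labels. Each library was shotgun sequence of the cecal contents of a single rat, and the tests rest on differences between rats; shared cages, litters or runs were not in the labels. Rats of a strain were numbered in a run of their own, and order of handling and strain cannot be told apart.

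Gut bacteria make arginine from glutamate by way of ornithine and citrulline, and many ferment it. In the arginine deiminase route arginine gives citrulline and ammonia, and citrulline then gives ornithine, carbon dioxide, ammonia and ATP. Arginine and ornithine are also the starting points of putrescine and spermidine, small positively charged molecules that bacteria and the gut lining both use for growth. Urea enters the large intestine from the blood, and bacterial urease, a nickel enzyme, splits it into ammonia and carbon dioxide, which returns nitrogen to the community.

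Levels are given as normalized reads, the reads named to a subsystem divided by the sample's size factor, as the authors deposited them. Reads named to any function ran from 95952 to 395417 in SHR females (median 214911) and from 251346 to 489862 in WKY females (median 396240). In males they ran from 159285 to 389859 in SHR (median 315719) and from 310753 to 426452 in WKY (median 382975). SHR libraries, above all those of females, were therefore the shallower ones. Bacterial genera common in the rodent large intestine, 8 in number, together took a median of 30.8% of reads in SHR females and 39.3% in WKY females, and of 28.9% in SHR males and 38.4% in WKY males. Levels are relative to the other functions of a library, and fewer bacteria with a gene and fewer gene copies per bacterium cannot be told apart in such data.

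Together the 11 subsystems took close to the same share of function reads in every group. The share was 1.12 ± 0.0569% in SHR females and 1.12 ± 0.0853% in WKY females (mean ± SD, n = 10 and 9), and 1.08 ± 0.0487% in SHR males and 1.13 ± 0.0738% in WKY males (n = 7 each). Polyamine Metabolism alone held 0.508% of all function reads and ranked 45th of the 1057 subsystems by mean level. Arginine Biosynthesis extended ranked 111th with 0.275%, Arginine and Ornithine Degradation 172nd with 0.172%, the Arginine Deiminase Pathway 336th with 0.0646%, Urea decomposition 388th with 0.0451% and Urease subunits 402nd with 0.0412%. The other 5 were rare. Over all 33 rats the Twin-arginine translocation system had 878 reads, Anaerobic Oxidative Degradation of L-Ornithine 258, Putrescine utilization pathways 167, GABA and putrescine metabolism from cluters (spelled so in the table) 70 and the Amidase clustered with urea and nitrile hydratase functions 4.

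Spread between rats differed among the members. Polyamine Metabolism, the most abundant, varied little, with a coefficient of variation of 5.49% to 7.99% within groups, where counting error alone would give 2.22% to 3.14%. Urease subunits varied by 16.6% to 29.4%, where counting error would give 7.42% to 11.1%, so rats differed from each other in urease beyond counting. For the ornithine subsystem the within-group variation of 30.2% to 74.1% lay near the 29.6% to 64.9% that counting would give, except in WKY males, where 73.1% stood against 29.6%.

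**Figure D1:**
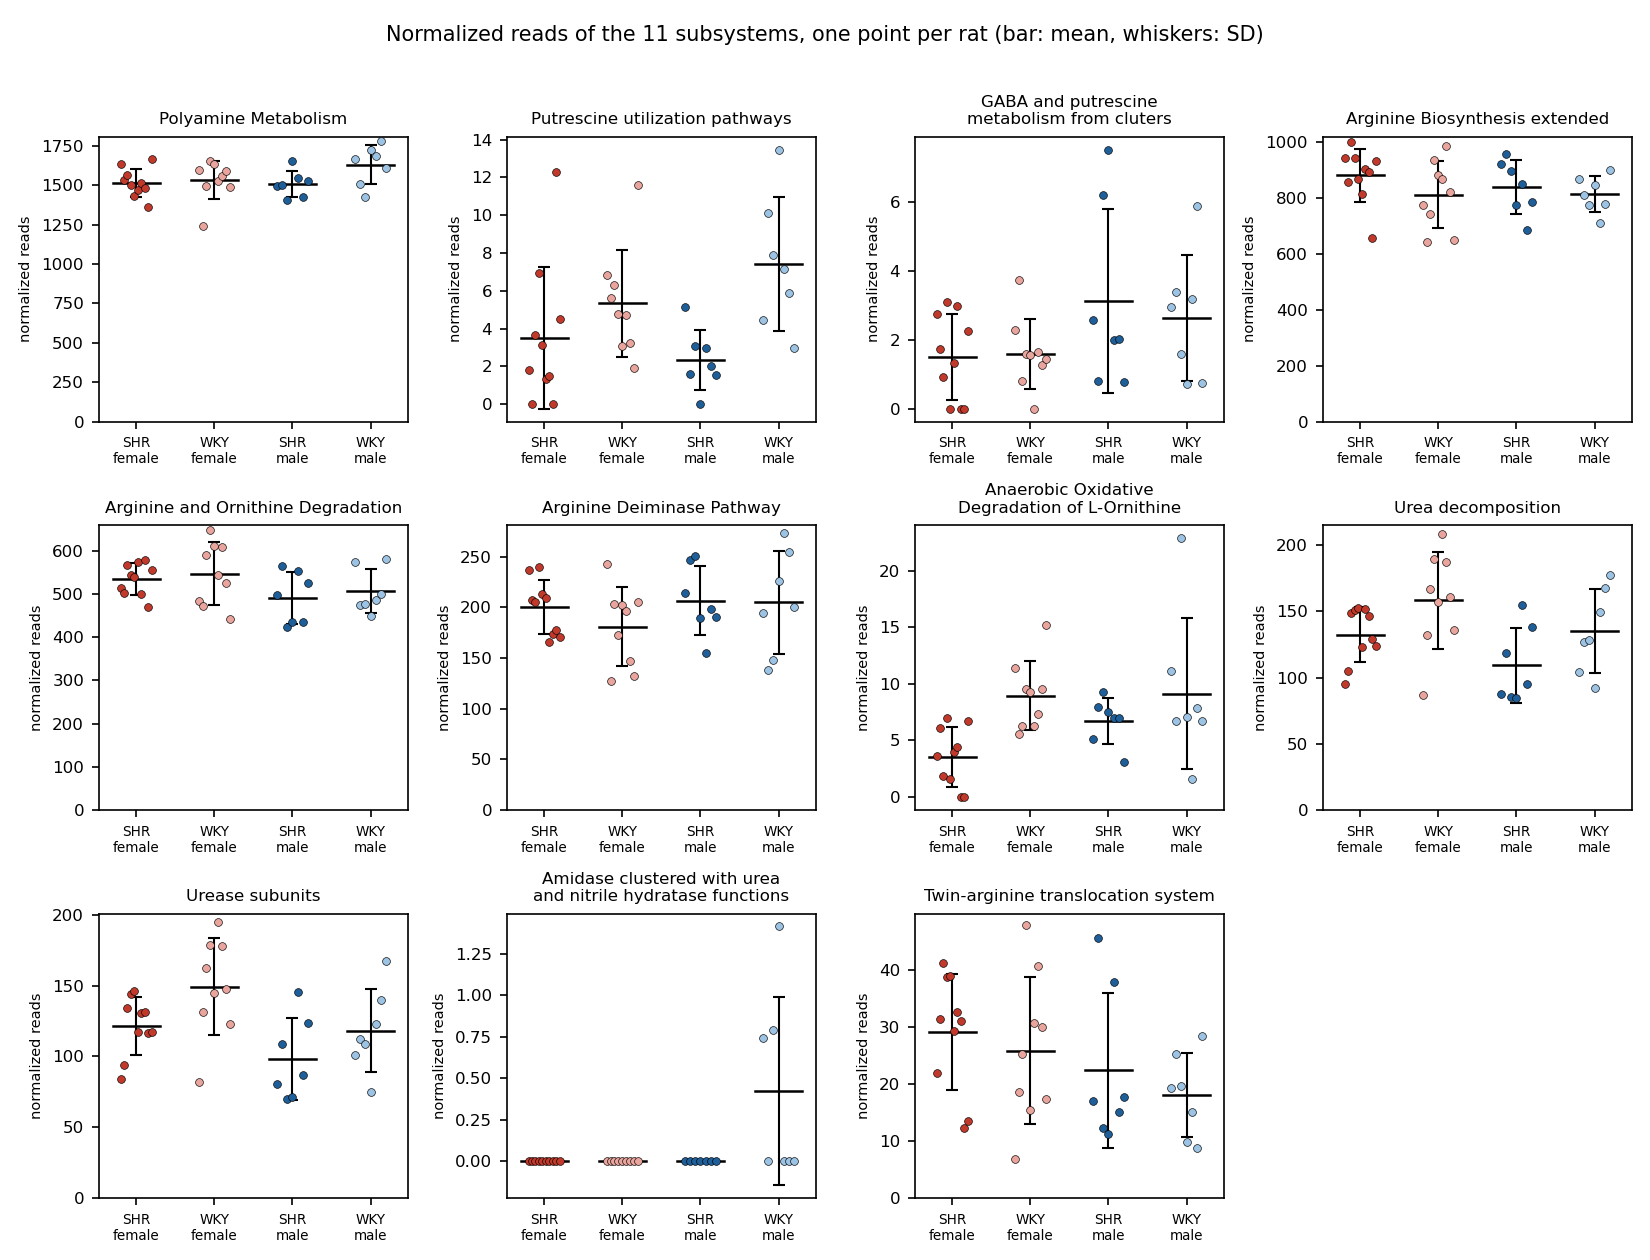
Normalized reads (vertical axes, each with its own scale) of the 11 subsystems in SHR females, WKY females, SHR males and WKY males, with a point per rat, a bar at the group mean and whiskers of 1 SD. Groups overlap in every panel; in the ornithine panel the 10 SHR females all lie at or below 6.96, with 2 of them at 0.

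The strain comparison asked whether the cecal microbial functions of hypertensive and normotensive rats differ, within each sex. In females 1 of the 11 subsystems was called (9.09%; limma, Benjamini-Hochberg adjusted p under 0.05 over all functions), where 8.42% of all 1057 functions were called, 3.69% as higher and 4.73% as lower. The members were thus called about as often as any function. That subsystem was Anaerobic Oxidative Degradation of L-Ornithine, which was lower in SHR females. In males 0 of 11 were called by limma, where 2.46% of all functions were (0.662% higher and 1.8% lower), while 2 of the 11 had an unadjusted p under 0.05, as had 203 of the 1057 functions, a like share. On the recovered reads of males edgeR called 0 members, where it called 37 of 1024 functions. DESeq2 called 1 member, where it called 77 of 1024 functions. The median log2 fold change of the members was -0.03 in females, against -0.04 over all functions, and -0.11 in males, against -0.0015 over all functions.

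**Figure D2:**
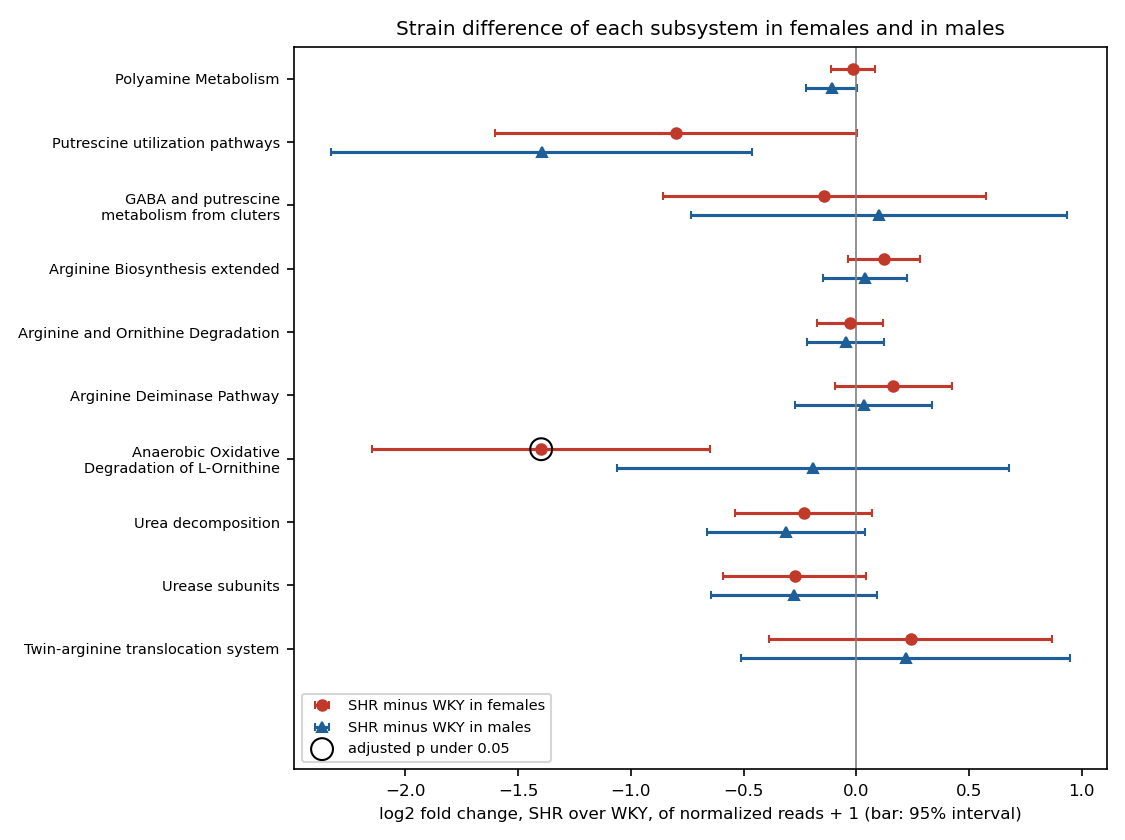
Log2 fold change of SHR over WKY (horizontal axis, on normalized reads + 1) of 10 subsystems, with 95% intervals from limma, in females (circles) and in males (triangles); the amidase cluster, with 0 reads in 3 of the 4 groups, is not drawn. A ring marks an adjusted p under 0.05, which the ornithine subsystem in females alone reached.

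Arginine Biosynthesis extended, which takes in the steps from glutamate to arginine, was among the well-read members, with at least 214 reads in each rat. Its normalized reads ran from 656 to 1002 in SHR females with a median of 900, and from 644 to 986 in WKY females with a median of 822. Although 8 of 10 SHR females lay above the WKY female median, the groups covered nearly the same span. The difference of 0.12 ± 0.08 on the log2 scale (± SE, 95% interval -0.04 to 0.28) did not pass (limma adjusted p 0.341). With depth as a term it was 0.24 and passed (limma adjusted p 0.0477). In males the level ran from 686 to 958 in SHR (median 851) and from 710 to 901 in WKY (median 810), again with full overlap. That difference was 0.04 ± 0.09 (limma adjusted p 0.868).

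Arginine and Ornithine Degradation, which gathers the routes that break these amino acids down, had overlapping strains in both sexes. It averaged 534 ± 36.5 normalized reads in SHR females, with values from 469 to 578 (median 542), and 547 ± 72.0 in WKY females, with values from 441 to 648 (median 544). The SHR females lay inside the span of the WKY females, 5 below and 5 above their median. In males it averaged 491 ± 59.4 in SHR (423 to 565, median 498) and 506 ± 51.0 in WKY (449 to 582, median 486). The log2 fold changes were -0.03 in females (95% interval -0.17 to 0.12, limma adjusted p 0.891) and -0.05 in males (-0.22 to 0.12, limma adjusted p 0.818). Those intervals span changes from -11.3% to 8.63% in females and from -13.9% to 8.90% in males.

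The Arginine Deiminase Pathway, by which lactic acid bacteria and others draw energy from arginine, had wider groups. Its normalized reads ran from 166 to 240 in SHR females (median 206) and from 127 to 243 in WKY females (median 196). In males they ran from 155 to 251 in SHR (median 199) and from 138 to 274 in WKY (median 200). In both sexes the SHR values lay within the WKY span. Log2 fold changes of 0.17 ± 0.13 in females (limma adjusted p 0.467) and 0.03 ± 0.15 in males (limma adjusted p 0.967) did not pass.

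Anaerobic Oxidative Degradation of L-Ornithine is a fermentation known from clostridia, in which ornithine is broken down without oxygen to acetate, alanine and ammonia. In SHR females its normalized reads ran from 0 to 6.96 with a median of 3.83, and 2 of the 10 rats, SHR females 8 and 9, had no read. In WKY females they ran from 5.6 to 15.2 with a median of 9.32, and every rat had reads. All 10 SHR females lay below the WKY female median, although the groups overlapped between 5.6 and 6.96.

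The mean was 3.53 ± 2.62 in SHR females and 8.95 ± 3.04 in WKY females (SD, n = 10 and 9), a log2 fold change of -1.40 ± 0.37 (95% interval -2.15 to -0.65; limma adjusted p 0.0152). Summed over rats, the subsystem took 32 reads in SHR females, 13 per 1000000 function reads (exact Poisson 95% interval 8.88 to 18.3), and 101 reads in WKY females, 29.4 per 1000000 (24 to 35.7); these intervals cover counting error only. Library depth moved with strain here: SHR female 9 was the shallowest library, with 95952 function reads, and a single read there was worth 3.07 normalized reads. Without the 3 shallowest libraries, a setting chosen after seeing the data, the fold change was -1.30 (limma adjusted p 0.0160). With log2 depth as a term in the fit it was -1.05 and no longer passed (limma adjusted p 0.0721); over the alternatives that gave a value the adjusted p ran from 0.00782 to 0.0721. The part of depth in the difference was not tested further. In the authors' deposited table of their female model the ornithine subsystem was the single member listed, with a log2 fold change of 1.2, a standard error of 0.357 and an adjusted p of 0.00505. That table does not state its direction, and each of the 85 functions it lists has the opposite sign to SHR minus WKY as computed here. The authors' male model lists 16 functions and their general model 148, with 0 members in each. The highest adjusted p that the authors list for any model is 0.00968.

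In males the ornithine subsystem ran from 3.09 to 9.29 in SHR (median 7.02) and from 1.59 to 22.9 in WKY (median 7.09). The medians were almost equal, and the highest value of all, in WKY male 3, rested on 29 reads. The log2 fold change in males was -0.19 ± 0.43 (limma adjusted p 0.866), and without WKY male 3 it was 0.06 (limma adjusted p 1). Whether the strain difference itself differed between the sexes was tested as strain by sex, and the difference of -1.21 ± 0.56 did not pass (limma p 0.0403, adjusted p 0.643). Within SHR, all 10 females lay below the male median, with a female minus male log2 fold change of -1.03 ± 0.39 that did not pass either (limma p 0.0133, adjusted p 0.837).

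**Figure D3:**
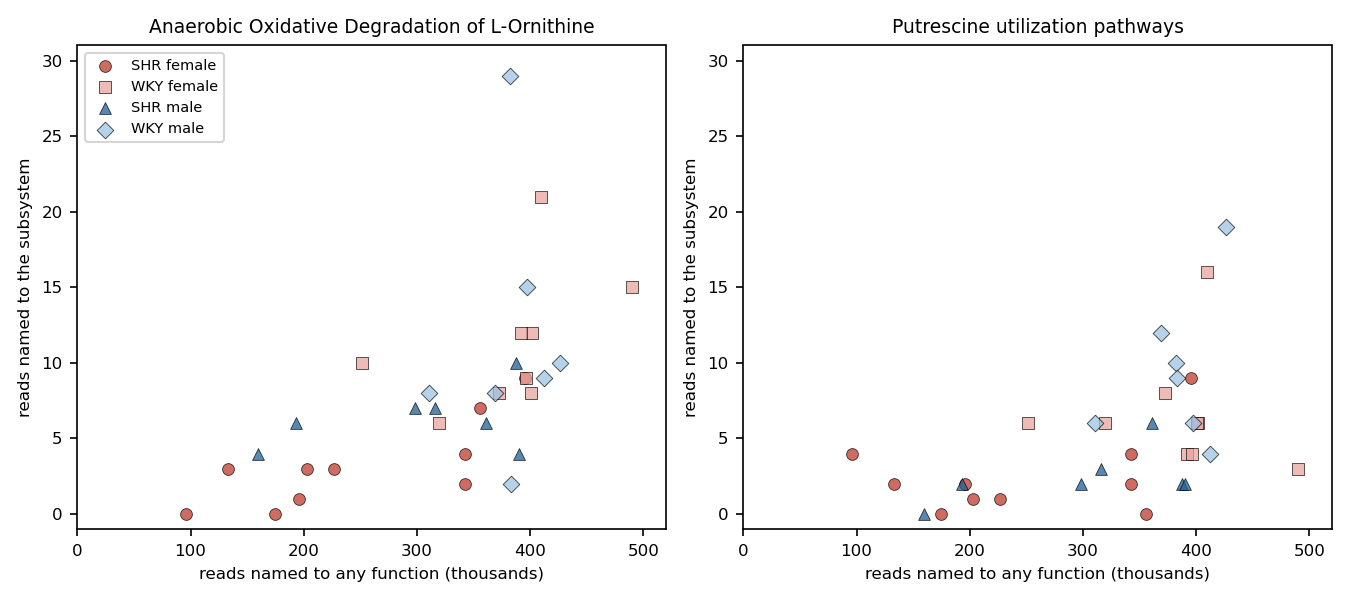
Reads named to the ornithine subsystem (left) and to Putrescine utilization pathways (right) on the vertical axes, against the reads named to any function in the same library, with a point per rat. SHR females spread down to 95952 function reads, and the highest points are WKY male 3 with 29 ornithine reads and WKY male 4 with 19 putrescine reads.

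Polyamine Metabolism, the synthesis and uptake of putrescine and spermidine, was the most abundant member. Its normalized reads ran from 1362 to 1664 in SHR females (median 1506) and from 1243 to 1656 in WKY females (median 1556). In males they ran from 1408 to 1655 in SHR (median 1504) and from 1427 to 1782 in WKY (median 1664). Females of the strains overlapped nearly in full, while in males all 7 SHR rats lay below the WKY median. In females the log2 fold change was -0.01 ± 0.05 (limma adjusted p 0.921), with a 95% interval that spans changes between -7.37% and 5.86%. In males it was -0.11 ± 0.06 (95% interval -0.22 to 0.0032; limma p 0.0565, adjusted p 0.272).

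Putrescine utilization pathways, by which enterobacteria and others take putrescine to GABA and succinate as a source of nitrogen and carbon, rested on few reads. In SHR males its normalized reads ran from 0 to 5.13 (median 2.01), with SHR male 4 at 0, and in WKY males from 2.99 to 13.5 (median 7.17). All 7 SHR males lay below the WKY male median, and the groups overlapped between 2.99 and 5.13. The mean was 2.34 ± 1.61 in SHR males and 7.42 ± 3.53 in WKY males (SD, n = 7 each), and the log2 fold change of -1.40 ± 0.46 did not pass (limma p 0.00457, adjusted p 0.0801). Summed over rats this was 17 reads or 8.08 per 1000000 in SHR males (exact Poisson 95% interval 4.71 to 12.9) and 66 reads or 24.6 per 1000000 in WKY males (19 to 31.3). Those intervals cover counting error only and leave out the spread between rats. The difference passed on the recovered reads with DESeq2 (-1.60, adjusted p 0.0371), with depth as a term (-1.50, limma adjusted p 0.0456) and without WKY male 7 (-1.56, limma adjusted p 0.0418). Over all alternatives the adjusted p ran from 0.0371 to 0.177.

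In females putrescine utilization ran from 0 to 12.3 in SHR (median 2.47) and from 1.91 to 11.6 in WKY (median 4.78). The SHR females spread over the whole WKY span, and 8 of 10 lay below the WKY median. The highest SHR value, in SHR female 9, came from 4 reads in the shallowest library. The log2 fold change of -0.80 ± 0.39 did not pass (limma p 0.0504, adjusted p 0.201). Without the 3 shallowest libraries, SHR female 9 among them, it was -1.14 and passed (limma adjusted p 0.0319).

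GABA and putrescine metabolism from cluters, a set of genes around the link between putrescine and the amino acid derivative GABA, was near the limit of detection. It had 14 reads over the SHR females and 17 over the WKY females, and 17 over the SHR males and 22 over the WKY males. At this depth no strain difference was detectable, with log2 fold changes of -0.14 ± 0.35 in females (limma adjusted p 0.872) and 0.10 ± 0.41 in males (limma adjusted p 0.957). The interval in females, -0.86 to 0.58, leaves room for changes in both directions.

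Urea decomposition covers the enzymes and transporters that take up and split urea, and Urease subunits the structural and accessory parts of urease. Urea decomposition ran from 95 to 152 normalized reads in SHR females (median 138) and from 86.6 to 209 in WKY females (median 161). All 10 SHR females lay below the WKY female median, yet the lowest female was a WKY rat. The means were 132 ± 20.9 in SHR females and 158 ± 36.7 in WKY females, and the difference of -0.23 ± 0.15 on the log2 scale did not pass (limma adjusted p 0.341). In males it ran from 84.6 to 155 in SHR (median 95.3) and from 92.1 to 178 in WKY (median 128). Of the SHR males 5 of 7 lay below the WKY median, and the log2 fold change of -0.31 ± 0.17 did not pass (limma adjusted p 0.326).

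Urease subunits followed the same course. The level ran from 84.1 to 146 in SHR females (median 124) and from 82.0 to 195 in WKY females (median 148), with all 10 SHR females below the WKY median. The log2 fold change was -0.27 ± 0.16 (95% interval -0.59 to 0.04; limma p 0.0892, adjusted p 0.285). With depth as a term it was -0.16 (limma adjusted p 0.598), and that of Urea decomposition in females was -0.13 (limma adjusted p 0.650). In males the level ran from 69.7 to 146 in SHR (median 87.2) and from 75.1 to 167 in WKY (median 112), and the difference of -0.28 ± 0.18 on the log2 scale did not pass (limma adjusted p 0.415). Females were the higher sex in both strains by point estimate, without passing: female minus male was 0.34 ± 0.17 in SHR (limma p 0.0536, adjusted p 0.837) and 0.33 ± 0.17 in WKY (limma p 0.0602, adjusted p 0.308).

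The urea subsystems largely moved as a single measure. Reads named to Urease subunits came to 81.5% to 99.3% of those named to Urea decomposition, with a median of 91.9% over the 33 rats, and exceeded them in 0 rats. Whether the same reads were counted in both is not given in the sources used here. Their agreement in direction is therefore not counted as separate evidence.

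The Amidase clustered with urea and nitrile hydratase functions, named for an amidase gene that neighbours genes of urea and nitrile breakdown, was at 0 in all SHR rats and all WKY females. It had 4 reads in 3 of the 7 WKY males. A count of 0 allows up to 1.22 per 1000000 function reads in SHR females, 0.874 in WKY females and 1.43 in SHR males (3 counts of the group's total), so no difference could be detected at this depth. Its fitted log2 fold change in males, -0.42 ± 0.13 (limma p 0.00408, adjusted p 0.0768), depends on the pseudocount and did not pass.

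The Twin-arginine translocation system exports folded proteins whose signal carries a pair of arginines. It averaged 29.1 ± 10.2 normalized reads in SHR females and 25.9 ± 12.9 in WKY females, and 22.4 ± 13.6 in SHR males and 18.1 ± 7.33 in WKY males. Rats of every group spread widely, from 6.84 to 47.8 among WKY females alone. The log2 fold changes of 0.24 ± 0.31 in females (limma adjusted p 0.682) and 0.22 ± 0.36 in males (limma adjusted p 0.791) did not pass. They moved between 0.041 and 0.37 in females and between 0.024 and 0.34 in males when a rat was left out, and with depth as a term they were 0.88 in females (limma adjusted p 0.0381) and 0.58 in males (limma adjusted p 0.233).

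Between the sexes 0 of the 11 subsystems were called by limma in SHR and 0 in WKY, where 0 and 0.662% of all functions were called. A single member had an unadjusted p under 0.05 in each strain, where 48 of the 1057 functions had one in SHR and 193 in WKY. They were the ornithine subsystem in SHR and the amidase cluster in WKY, and edgeR and DESeq2 also called 0 members. Of 1024 functions edgeR called 0 in SHR and 36 in WKY, and DESeq2 called 0 in SHR and 68 in WKY. The strain by sex test called 0 members and 0 functions, with 2 members and 82 functions at an unadjusted p under 0.05; on recovered reads edgeR called 0 functions and DESeq2 called 1, which was no member.

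Neighbouring nitrogen pathways were read from the same fit, as 18 further subsystems on cyanophycin, proline, glutamate, glutamine, ammonia, creatine, allantoin, lysine degradation and pyrimidine synthesis. The list was chosen with earlier results of these data known, so its counts are not independent evidence. Of all functions 8.42% were called in females in either direction, 4.73% as lower. Of the list 3 of the 18 (16.7%) were lower in SHR females and 0 were higher, with a median log2 fold change of -0.03. That count was 2 with edgeR, DESeq2 or the filter on low values, 5 with depth as a term and 6 with the centred log-ratio. Over all functions, in either direction, these settings called 102 of 1024, 125 of 1024, 72 of 650, 231 of 1057 and 268 of 1024. Those called were Cyanophycin Metabolism, the Putative diaminopropionate ammonia-lyase cluster and p-Aminobenzoyl-Glutamate Utilization, while Ammonia assimilation, the entry of ammonia into glutamine and glutamate, stood at 0.25 ± 0.10 without passing (limma adjusted p 0.113). In males 1 of 18 was lower, where 1.8% of all functions were (2.46% in either direction), and 0 were higher, with a median of -0.20. The count in males was 0 with males alone and 2 with edgeR, DESeq2, a pseudocount of 10, the filter, the centred log-ratio, depth as a term or without the 3 shallowest libraries. It was also 2 without any 1 of SHR females 9 and 10, SHR males 3 and 4, WKY females 2, 3 and 9, and WKY males 1, 4 and 7. Over all functions 2 were called with males alone and 10 to 81 when a rat was left out. The other settings named called from 29 (pseudocount of 10) to 94 (depth as a term).

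Cyanophycin is a storage polymer built from arginine and aspartate, so its subsystem is the closest to the members in chemistry. In males it ran from 11.2 to 26.3 normalized reads in SHR (median 19.3) and from 27.6 to 166 in WKY (median 46.8). The means were 18.8 ± 4.63 in SHR males and 66.4 ± 47.6 in WKY males, and limma gave a log2 fold change of -1.56 ± 0.33 (adjusted p 0.00938). It was lost when males alone were fitted (limma adjusted p 0.134). In females the means were 18 ± 10.9 in SHR and 43.0 ± 13.7 in WKY. That difference passed in all 44 alternatives, of which 33 left out a single rat of either sex. The female groups overlapped, with values from 8.51 to 38.2 in SHR and from 22.3 to 65.2 in WKY.

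The other calls were in females. p-Aminobenzoyl-Glutamate Utilization, which recovers glutamate from a breakdown product of folate, averaged 15.8 ± 5.03 in SHR females and 28.9 ± 6.39 in WKY females (log2 fold change -0.86 ± 0.22, limma adjusted p 0.0138). The diaminopropionate ammonia-lyase cluster, named for an enzyme that releases ammonia from an amino acid, averaged 0.709 ± 1.19 in SHR females and 3.62 ± 3.08 in WKY females (-1.38 ± 0.37, limma adjusted p 0.0166). It passed in 39 of 43 alternatives, of which 33 left out a single rat of either sex. The call was lost with edgeR (adjusted p 0.0672), DESeq2 (adjusted p 0.0714), the centred log-ratio (limma adjusted p 0.0531) and depth as a term (limma adjusted p 0.0721).

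Levels were next set against genera with species known for the pathway, over all 33 rats with each group's mean removed, in 20 relations. The genus shares and the subsystem levels come from the same libraries, and shares are parts of a whole. Of the 20 relations 9 passed by a permutation test (100000 resamples, Benjamini-Hochberg adjusted p under 0.05 for Pearson's r), 8 of them negative and 1 positive. Of the 8 negative relations 6 were those of Urea decomposition and Urease subunits with the same 3 genera.

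Arginine and Ornithine Degradation was lower in rats with a larger share of Enterococcus, a genus whose species use the arginine deiminase route. Pearson's r was -0.75 (permutation p 1e-05, the smallest that the resampling could give, adjusted p 0.0002) and Spearman's rho -0.71 (permutation p 2e-05, adjusted p 0.0004). Within groups r was -0.53 in SHR females and -0.83 in WKY females, and -0.93 in SHR males and -0.59 in WKY males. It was -0.74 without the 2 rats farthest from the median share and -0.72 with depth removed. With normalized reads of the genus in place of its share it was -0.68, and with the subsystem on equal totals -0.62. Library depth went with the subsystem (r 0.34) and against the share of Enterococcus (r -0.55). The share of Enterococcus itself was small, with medians of 0.213% in SHR females and 0.179% in WKY females, and 0.241% in SHR males and 0.229% in WKY males. With Streptococcus r was -0.65 (rho -0.63, permutation adjusted p 0.0009 and 0.001). It was negative in 4 of 4 groups, -0.63 without the 2 farthest rats and -0.53 with the subsystem on equal totals. With depth removed it was -0.59, and the share of Streptococcus ran against depth (r -0.48). The Arginine Deiminase Pathway itself gave r of 0.01 with Enterococcus, -0.06 with Streptococcus and 0.16 with Limosilactobacillus. None of these passed (permutation adjusted p 0.984, 0.901 and 0.486).

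Urease subunits were lower in rats with more Klebsiella (r -0.51, rho -0.55; permutation p 0.00256 and 0.00104, adjusted p 0.0128 and 0.0036), more Helicobacter (r -0.45, rho -0.56; permutation adjusted p 0.0268 and 0.0036) and more Staphylococcus (r -0.44, rho -0.56; permutation adjusted p 0.0268 and 0.0036). Each of these was negative in 4 of 4 groups, and without the 2 farthest rats r was -0.53, -0.40 and -0.44. With normalized reads of each genus in place of its share, r was -0.67, -0.38 and -0.33. The values on that scale were not tested by permutation. Klebsiella, Helicobacter and Staphylococcus all hold species with urease, but their shares were small. Group medians ran from 0.0706% to 0.0993% for Klebsiella, from 0.0506% to 0.0754% for Helicobacter and from 0.333% to 0.455% for Staphylococcus. With Limosilactobacillus r was -0.04 and did not pass (permutation adjusted p 0.905). The share of Staphylococcus also ran against depth, with r of -0.60, and those of Klebsiella and Helicobacter less so (-0.18 and -0.21). With depth removed, Urease subunits gave r of -0.49 with Klebsiella, -0.42 with Helicobacter and -0.40 with Staphylococcus. Urea decomposition gave r of -0.54 with Klebsiella, -0.47 with Helicobacter and -0.43 with Staphylococcus (permutation adjusted p 0.00893, 0.0236 and 0.0268). With normalized reads of each genus these were -0.68, -0.37 and -0.30.

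The positive relation was that of the Arginine Deiminase Pathway with Eggerthella, a genus with arginine-fermenting species (r 0.44, permutation p 0.0111, adjusted p 0.0268). By rank it did not pass (rho 0.38, permutation p 0.0303, adjusted p 0.0606). It was positive in 3 of 4 groups and -0.23 in SHR females, and r was 0.36 without the 2 farthest rats. The same genus gave r of -0.37 with Arginine and Ornithine Degradation (rho -0.43; permutation adjusted p 0.0656 and 0.0277).

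**Figure D4:**
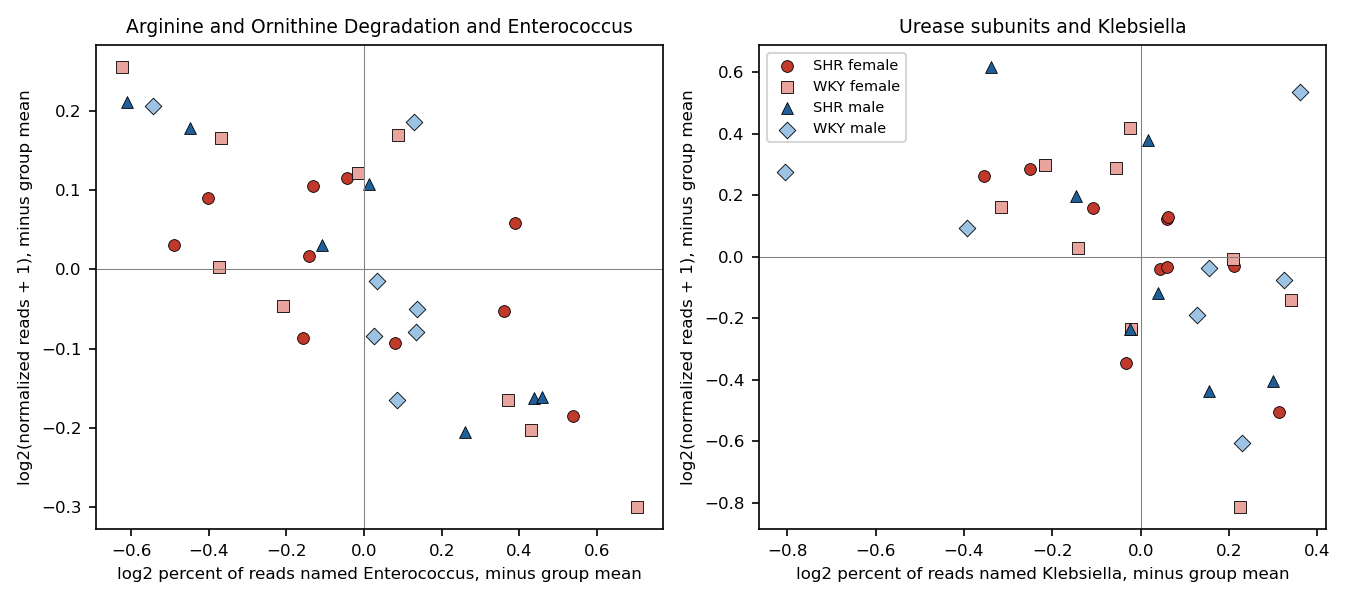
Log2 of normalized reads + 1 of Arginine and Ornithine Degradation against log2 percent of reads named Enterococcus (left), and of Urease subunits against Klebsiella (right), each minus its group mean, with a point per rat. Points fall from upper left to lower right, with r of -0.75 on the left and -0.51 on the right over 33 rats.

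Among the 7 members with enough reads, 21 pairs were compared over the 33 rats in the same way, a comparison added after seeing the data, and 9 pairs passed by permutation (adjusted p under 0.05 for Pearson's r). Whether any of the 21 pairs share reads is not given in the sources used here. The 9 include Urea decomposition with Urease subunits (r 0.98), which may share reads. They also include Urea decomposition with Arginine and Ornithine Degradation (r 0.58) and with the Twin-arginine translocation system (r 0.63), which largely repeat the pairs of Urease subunits. Arginine and Ornithine Degradation went with Urease subunits (r 0.65, rho 0.68; permutation adjusted p 0.000157 and 0.000525), with Arginine Biosynthesis extended (r 0.64, rho 0.57; permutation adjusted p 0.000157 and 0.00213) and with the Twin-arginine translocation system (r 0.62, rho 0.60; permutation adjusted p 0.000315 and 0.000966). The last went with Urease subunits as well (r 0.67, rho 0.66; permutation adjusted p 0.000105 and 0.0007). Those 4 pairs had r between 0.55 and 0.67 without the 2 farthest rats and between 0.49 and 0.63 on equal totals. Arginine Biosynthesis extended also passed with Polyamine Metabolism (r 0.49, 0.32 on equal totals), but not by rank (rho 0.36, permutation adjusted p 0.1). Within groups that r was 0.76 in SHR females and 0.72 in WKY females, and -0.05 in SHR males and 0.01 in WKY males. Without the 2 farthest rats it was 0.37. With the Twin-arginine translocation system Arginine Biosynthesis extended passed too (r 0.49, 0.36 on equal totals). The Arginine Deiminase Pathway showed no such relation with Arginine and Ornithine Degradation (r -0.04, permutation adjusted p 0.919) or with Arginine Biosynthesis extended (r 0.08, permutation adjusted p 0.789), although all 3 handle arginine.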

How the data were processed

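Cecal DNA of 33 rats was extracted with a PowerSoil bead kit and made into Nextera libraries, per the labels' protocols. Of tools, the submitters' processing notes name Trimmomatic 0.36, cutadapt 2.6 and FastQC 0.11.5, beside DESeq2 and the rat build Rnor_6.0. How reads were named to functions is not given in the sources used here. The authors deposited a signal per subsystem, the reads of each subsystem over the sample's size factor. They also deposited genus shares in percent of reads, and tables of their own models with log2 fold changes, p-values and standard errors. Dividing each sample by its smallest step gave whole reads for 100% of values (tolerance 0.01 read). Columns without a sample numbered 0.

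limma (trend and robust estimation) was run on log2(normalized reads + 1) of all 1057 functions with 4 group means, and p-values were adjusted by Benjamini-Hochberg over all functions, 2-sided, with a call at an adjusted p under 0.05. Fold changes of low functions on this scale depend on the pseudocount. For the ornithine subsystem in females they were -1.65 with 0.5, -1.40 with 1 and -0.50 with 10. On recovered reads it was -1.19 with edgeR and -1.22 with DESeq2. The fit was tested on simulated data that gave every function the same spread beyond counting, a spread not matched to that of the members. Relations over rats used permutation tests with 100000 resamples. Alternatives were edgeR with TMM and DESeq2 on recovered reads, pseudocounts of 0.5 and 10, a filter (10 normalized reads in at least 7 rats, passed by 7 of the 11 members), equal totals, a centred log-ratio, no trend, log2 depth as a term, only the groups compared and leaving out each rat. All 11 members are named, with full values where called, most abundant or smallest in p. The members and lists were chosen with earlier results of these data known. A planned list by annotation category was not used, as no such column was found. Fits used limma 3.58.1, DESeq2 1.42.0 and edgeR 4.0.16 in R 4.3.3, and other steps scipy 1.17.1, pandas 2.3.3, numpy 2.4.6 and matplotlib 3.10.9 in Python 3.11.15.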

Additional observations from a re-analysis of the deposited data

Results flagged for a closer look

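Of the 41 combinations of subsystem and group whose rats were not all at 0, a single one held a rat far from the others, where chance gives about 1 in 20 groups. In Polyamine Metabolism WKY female 2 stood at 1243 normalized reads, the next WKY female at 1490 and the group median at 1556 (n = 9). Its library held 319229 function reads. Without any single rat, WKY female 2 included, the strain difference in females lay between -0.05 and 0.0026 on the log2 scale and did not pass.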

How the results depend on the processing

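The lower ornithine subsystem in SHR females passed in 42 of the 43 alternatives that gave a value. Of these, 33 left out a single rat of either sex, with log2 fold changes of -1.52 to -1.19 (limma adjusted p 0.00899 to 0.0299). The fold change was -1.19 with edgeR (adjusted p 0.0402) and -1.22 with DESeq2 (adjusted p 0.0260). Depth as a term ended the call, and the filter on low values left it untested. Members called in females numbered 0 of 7 under that filter, 2 with the centred log-ratio, 2 with depth as a term (Arginine Biosynthesis extended, 0.24, limma adjusted p 0.0477, and the Twin-arginine translocation system, 0.88, adjusted p 0.0381) and 2 without the 3 shallowest libraries. Over all functions the same settings called 72 of 650, 268 of 1024, 231 of 1057 and 150 of 1057. The second call of the centred log-ratio was the amidase cluster (0.60, limma adjusted p 0.0306), which had no read in females, so that value comes from the centring. In males 1 member was called with DESeq2, 1 with depth as a term and 0 to 2 when a rat was left out (the amidase cluster without WKY male 2 or 7, putrescine utilization without WKY male 7), and between the sexes of WKY 0 to 1 (without WKY male 7). Over all functions DESeq2 called 77 of 1024 in males, depth as a term 94 of 1057 and the fits without a rat 10 to 81. Between the sexes of WKY the fits without a rat called 2 to 74 functions.

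Several small differences changed sign, none of them past the threshold where the sign was turned. With the centred log-ratio Arginine Biosynthesis extended stood at -0.012 in females and -0.013 in males, and the Arginine Deiminase Pathway in males at -0.019 (-0.055 to 0.11 with a rat left out). Arginine and Ornithine Degradation in females stood at 0.056 with depth as a term (-0.064 to 0.0055 with a rat left out). GABA and putrescine metabolism in females stood at 0.15 with edgeR, 0.14 with DESeq2 and 0.22 with the centred log-ratio, and in males at -0.11 without the 3 shallowest libraries (-0.11 to 0.28 with a rat left out). Polyamine Metabolism in females stood at 0.0071 with edgeR and 0.0094 with depth as a term (-0.051 to 0.0026 with a rat left out), and the ornithine subsystem in males ran from -0.48 to 0.057 with a rat left out. The causes were not tested.

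Functions called in females numbered 268 with the centred log-ratio, 231 with depth as a term and 150 without the 3 shallowest libraries (61 to 129 with a rat left out). In males they numbered 77 with DESeq2, 50 under the filter, 94 with depth as a term and 2 with males alone (10 to 81, beyond 1.5 times the count without SHR male 1 or 2 or WKY male 1, 2, 5, 6 or 7). Strain by sex gave 1 with DESeq2, 1 with the centred log-ratio and 3 with depth as a term (0 to 1). Female minus male in SHR gave 2 with the centred log-ratio (0 to 1). In WKY it gave 36 with edgeR, 68 with DESeq2, 23 under the filter, 14 with the centred log-ratio, 22 with depth as a term, 1 with WKY alone and 12 without the 3 shallowest libraries (2 to 74). Among called functions 43.8% were higher in SHR females, against 53.9% with edgeR, and 26.9% in SHR males, against 3.33% with the centred log-ratio. No paired analysis was possible because the labels give no pairing of rats. Few reads limit the 4 rarest members, and shallow SHR libraries limit them most.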
